A study of Homo sapiens with 16 samples.

Results

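The comparison described here is the knockdown effect at 48 h net of that at 24 h: knockdown minus wild type at 48 h, minus knockdown minus wild type at 24 h. It uses 10 of the 16 libraries of a series on NORAD, a long noncoding RNA, in HCT116 cells, a line from a human colon cancer. The 4 groups were NORAD knockdown at 48 h (3 libraries), wild type at 48 h (3 libraries), knockdown at 24 h (2 libraries) and wild type at 24 h (2 libraries). The other 6 libraries, 3 knockdown and 3 wild type at 96 h, entered the model for the spread and served as separate libraries for the genes found. Knockdown was by CRISPR interference, in which a Cas9 that cannot cut brings a repressor domain to a gene's promoter. The protocol in the labels names 0.5 µg/ml doxycycline as the inducer and is attached to every library, wild type included. Whether wild-type cells carried the Cas9 fusion or a guide, whether the knockdown cells were 1 clone, and the guide sequence are not stated. The replicates are not labelled as separate cultures; the p-values therefore rest on a spread between libraries that may be technical.

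NORAD is an abundant, mostly cytoplasmic RNA that binds the Pumilio proteins, which repress the messenger RNAs they bind. It is known for its role in keeping chromosome number stable, and the title of the series places it in a complex that contains a topoisomerase. At 24 h NORAD had not fallen, so the 24 h pair shows how the 2 sets of cells differed with NORAD present, and the net value subtracts that difference. The same subtraction gives a net value to any gene that differed at 24 h and no longer did, or did less, at 48 h. Both parts are therefore given below for many of the genes and lists. Where only a net value is given, a rise or fall may come from the 24 h difference alone. It is then not a statement about the level at 48 h.

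NORAD lies at chr20:36045622-36050960 on the minus strand (GRCh38, GENCODE 29). Its promoter is shown because CRISPR interference acts at promoters. The RefSeq window (GRCh38.p14, chr20:36050911-36051210, minus strand) holds 250 bases before the transcription start in lower case and 50 bases after it in capitals.
NORAD promoter: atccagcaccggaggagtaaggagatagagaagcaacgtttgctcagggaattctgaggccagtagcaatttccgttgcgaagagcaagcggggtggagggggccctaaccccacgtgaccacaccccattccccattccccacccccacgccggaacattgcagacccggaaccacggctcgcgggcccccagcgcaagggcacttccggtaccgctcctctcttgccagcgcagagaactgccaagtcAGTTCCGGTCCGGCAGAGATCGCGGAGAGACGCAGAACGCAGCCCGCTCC
The transcript of 5339 bases holds 15 matches on its own strand to the Pumilio motif UGUANAUA (T stands for U in the windows, and N is any base). The 4 windows below carry the motif in capitals and begin their motif at bases 1140, 1442, 2972 and 3593 of the transcript. They are shown because the motif is searched again below in the genes that moved.
NORAD motif 2: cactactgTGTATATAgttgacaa
NORAD motif 4: cttatctgTGTATATAgtgtacat
NORAD motif 11: ccctactgTGTATATAgcggacaa
NORAD motif 14: tgctactgTGTATATAatggaaaa

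The 10 libraries held between 28391784 and 44036466 estimated counts. Principal components were computed from log2 CPM, where CPM is a count scaled to the library's total after trimmed mean of M-values scaling. Component 1 held 53% of the variance and separated 48 h from 24 h. Component 2 held 16.8% and placed knockdown replicates 1 and 2 of 48 h at 55.3 and 63.9, but knockdown replicate 3 of 48 h at -9.80, beside the wild-type libraries of 48 h at -43.4, -41.6 and -17.8. That library also differed from the other 2 of its group in the share of counts on retained-intron transcripts, 4.05% against 5.56% and 5.14%, where wild type at 48 h had 3.93% to 4.13%. Mitochondrially encoded RNAs held 12.3% to 13.8% of counts in knockdown and 10.4% to 11.1% in wild type at 48 h, and 6.08% to 6.10% in knockdown and 4.89% to 5.05% in wild type at 24 h. The part of these shares in the results was not tested. NORAD itself was low in all 3 knockdown libraries of 48 h.

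**Figure D1:**
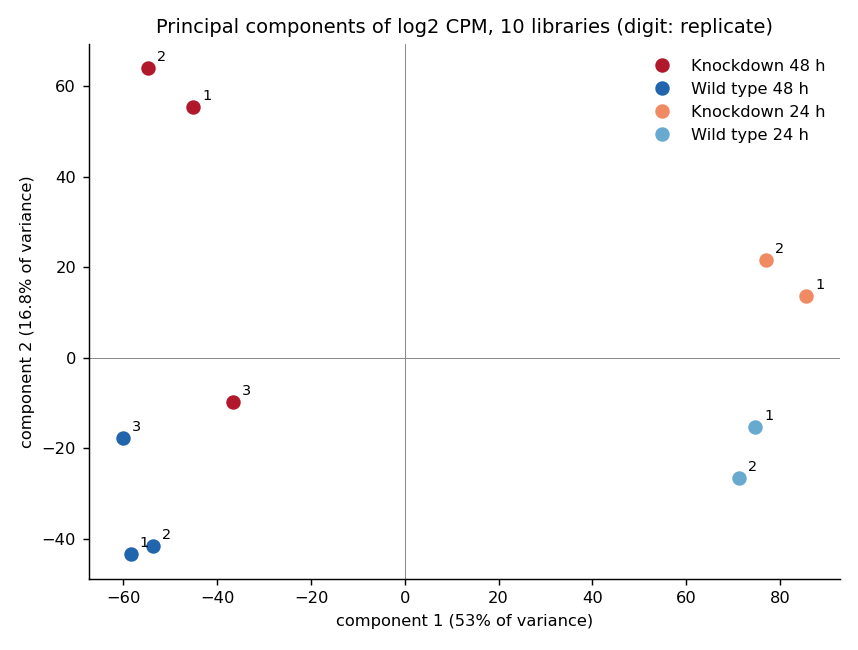
Each point is 1 of the 10 libraries, placed by its scores (no unit) on components 1 and 2 of log2 CPM; colours give the group and digits the replicate. Knockdown replicate 3 of 48 h, at -9.80 on component 2, lies nearer to the wild-type libraries of 48 h than to the other 2 libraries of its group.

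NORAD fell by 3.01 (SE 0.157) on the log2 scale in the net comparison, and nearly all of it arose at 48 h. It had 21.8, 18.1 and 24.8 CPM in knockdown and 156, 155 and 162 CPM in wild type at 48 h. At 24 h it had 229.7 and 188 CPM in knockdown and 179 and 201 CPM in wild type. The groups were far apart at 48 h, while at 24 h the knockdown and wild-type libraries overlapped. The log2 fold change of knockdown over wild type was -2.88 at 48 h (SE 0.105, edgeR adjusted p = 1.27e-13) and 0.14 at 24 h (SE 0.117, edgeR adjusted p = 0.523), and the net difference passed at an edgeR adjusted p of 2.87e-10. At 96 h NORAD was at 79.9, 72.7 and 66.2 CPM in knockdown and 181, 184 and 183 CPM in wild type, a log2 fold change of -1.33. The 38 tested genes within 1 Mb of NORAD had a median net log2 fold change of 0.00, and none of them passed the edgeR test. Without knockdown replicate 3 of 48 h 2 of them rose and 3 fell, and 1 rose without knockdown replicate 2 of 48 h, with upper-quartile scaling and with abundance-dependent scaling.

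Of 19836 genes tested, 352 had a net change (1.77%; edgeR quasi-likelihood test, Benjamini-Hochberg adjusted p under 0.05), of which 213 rose (1.07%) and 139 fell (0.701%). With no adjustment, 2671 genes had a p under 0.05. The median net log2 fold change over all genes was 0.06. The number called moved by more than 1.5 times without most single libraries: it was 1543 without knockdown replicate 3 of 48 h, 189, 180 and 223 without wild-type replicates 1, 2 and 3 of 48 h, 170 and 145 without knockdown replicates 1 and 2 of 24 h, and 99 and 186 without wild-type replicates 1 and 2 of 24 h. All 352 genes were also called without knockdown replicate 3 of 48 h, and 64 genes, 35 rising and 29 falling, were called without each of the 10 libraries in turn. The split depends on scaling as well: 60.5% of the calls rose here, against 44.1% with relative log expression scaling, 34.2% with scaling by total count, 50.5% with abundance-dependent scaling, 38.9% with no filter on low counts and 44.9% with DESeq2.

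The called genes other than NORAD fell into 3 kinds. In the kind that follows NORAD's own pattern, the 24 h difference did not pass and the 48 h difference passed in the net direction. Of this kind were 108 rising and 64 falling genes, which are said below to have arisen at 48 h. With 2 libraries per arm at 24 h, a difference that did not pass is not shown to be absent. In another 12 rising and 15 falling genes both times passed in the net direction and the difference was larger at 48 h. In the remaining 93 rising and 59 falling genes the 24 h difference passed in the direction opposite to the net value, so that a difference present before NORAD fell became smaller or changed sign. At 24 h 17.6% of all genes passed and at 48 h 33.2%, and these calls share libraries with the net value, so the 3 kinds are a description and not a test.

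**Figure D2:**
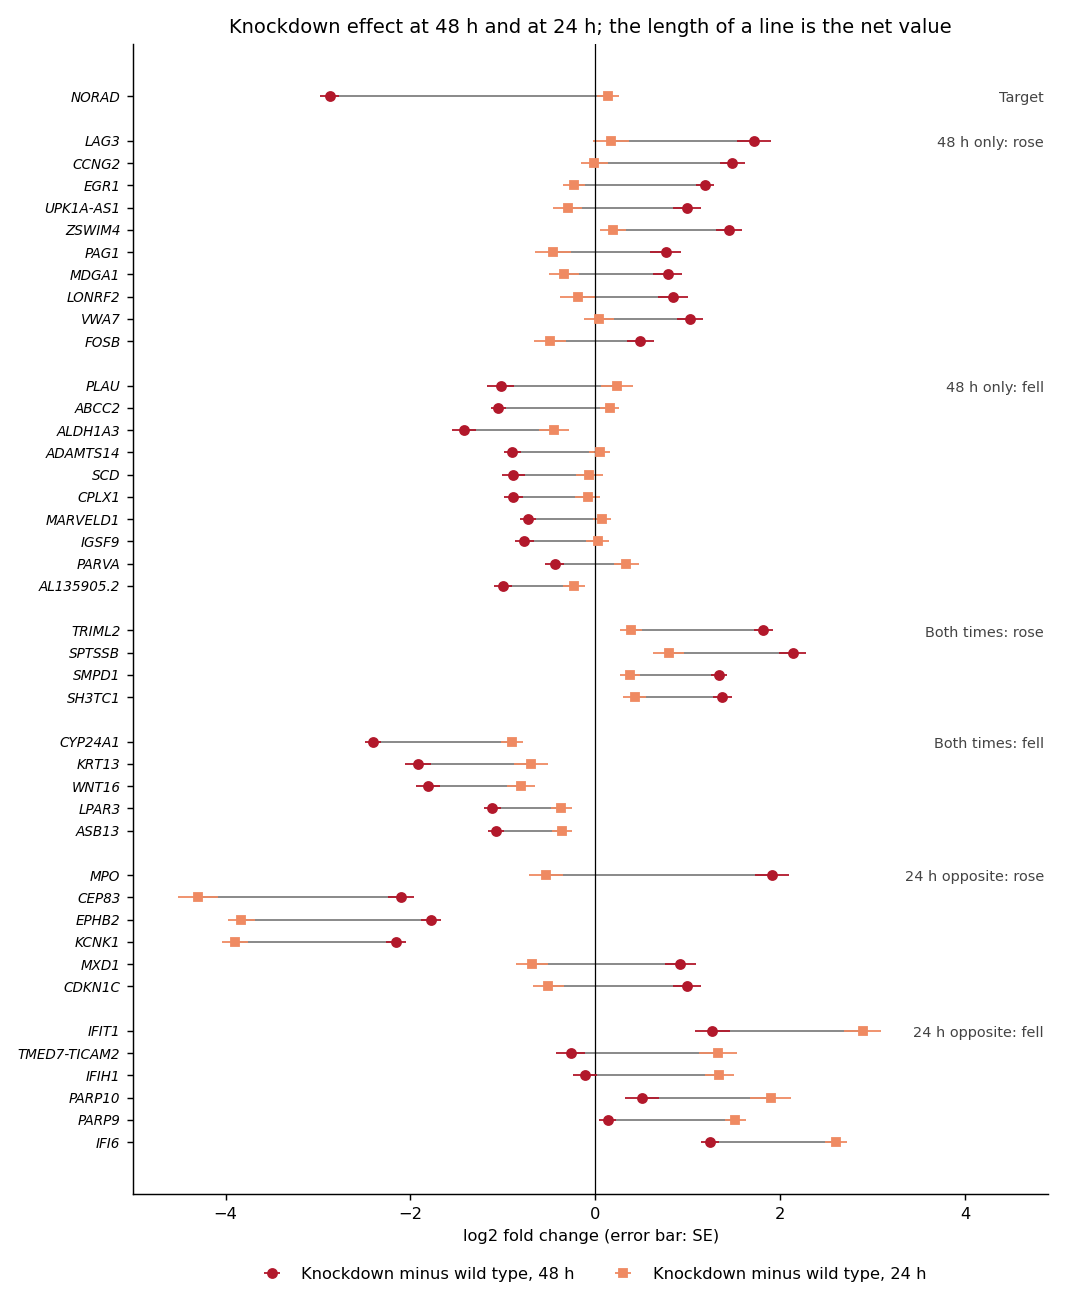
Log2 fold change of knockdown over wild type (horizontal axis; error bars are SE) at 48 h (circles) and 24 h (squares) for NORAD and the genes named by rule, grouped by kind. NORAD has -2.88 at 48 h and 0.14 at 24 h; EPHB2, KCNK1 and CEP83 lie further from 0 at 24 h than at 48 h.

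The next genes passed at 48 h, did not pass at 24 h and averaged at least 5 CPM over the 10 libraries. The largest rises among them were LAG3 (net log2 fold change 1.54), an inhibitory receptor of lymphocytes, and CCNG2 (1.49), an unconventional cyclin that slows the cell cycle. After these came EGR1 (1.41), an immediate early transcription factor induced by growth factor signalling, UPK1A-AS1 (1.29), an antisense RNA, and ZSWIM4 (1.25), a zinc finger protein. They were followed by PAG1 (1.21), a membrane adaptor that restrains Src family kinases; MDGA1 (1.12), an adhesion molecule of neurons; LONRF2 (1.03); VWA7 (0.99); and FOSB (0.98), an immediate early partner of JUN. EGR1 had 249, 223 and 309 CPM in knockdown and 109, 125 and 109.8 CPM in wild type at 48 h, and 141 and 136 CPM in knockdown and 159 and 167 CPM in wild type at 24 h. Every knockdown library of 48 h was above every wild-type library, whereas at 24 h both knockdown libraries were below both wild-type libraries. Its log2 fold change was 1.18 at 48 h and -0.23 at 24 h, with a net SE of 0.153 (edgeR adjusted p = 2.05e-05).

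CCNG2 had 14.4, 12.5 and 13.7 CPM in knockdown and 4.64, 4.03 and 5.90 CPM in wild type at 48 h, against 39.4 and 27.7 CPM in knockdown and 33.5 and 33.9 CPM in wild type at 24 h. LAG3 had 5.42, 5.46 and 3.55 CPM in knockdown and 1.33, 1.46 and 1.60 CPM in wild type at 48 h, against 8.43 and 10.2 CPM in knockdown and 8.73 and 7.86 CPM in wild type at 24 h. Both genes were lower at 48 h than at 24 h in every library, and the net rise was a smaller drop with time in knockdown than in wild type. From 24 h to 48 h the log2 change was -1.30 in knockdown and -2.79 in wild type for CCNG2, -0.95 and -2.50 for LAG3, -1.69 and -2.94 for ZSWIM4, -2.05 and -3.18 for MDGA1, and -1.73 and -3.02 for UPK1A-AS1, knockdown given before wild type each time. EGR1 differed from these: it changed by 0.91 in knockdown and by -0.51 in wild type. The labels do not say whether the counting used strand, so reads of UPK1A-AS1 and of UPK1A cannot be told apart.

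The calls of LAG3, CCNG2, EGR1, UPK1A-AS1 and ZSWIM4 held without each of the 10 libraries in turn; those of the other 5 did not. Without wild-type replicate 1 of 24 h the edgeR adjusted p was 0.331 for LONRF2, 0.0534 for VWA7 and 0.298 for FOSB, and without wild-type replicate 2 of 24 h it was 0.137 for PAG1, 0.0673 for MDGA1 and 0.101 for VWA7. Without knockdown replicate 1 of 24 h it was 0.176 for LONRF2 and 0.0688 for VWA7, and without knockdown replicate 2 of 24 h it was 0.141 for PAG1, 0.076 for MDGA1, 0.128 for LONRF2, 0.125 for VWA7 and 0.228 for FOSB. Without a library of 48 h it was 0.0848 for LONRF2 (knockdown replicate 1), 0.0757 and 0.0738 for LONRF2 and FOSB (wild-type replicate 1), 0.0565, 0.112 and 0.0782 for PAG1, LONRF2 and FOSB (wild-type replicate 2), and 0.0747 and 0.0522 for LONRF2 and VWA7 (wild-type replicate 3). In a fit of the 10 libraries alone it was 0.0687 for PAG1, 0.0555 for MDGA1, 0.0981 for LONRF2 and 0.107 for FOSB, and with scaling by total count it was 0.0713 for LONRF2.

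**Figure D3:**
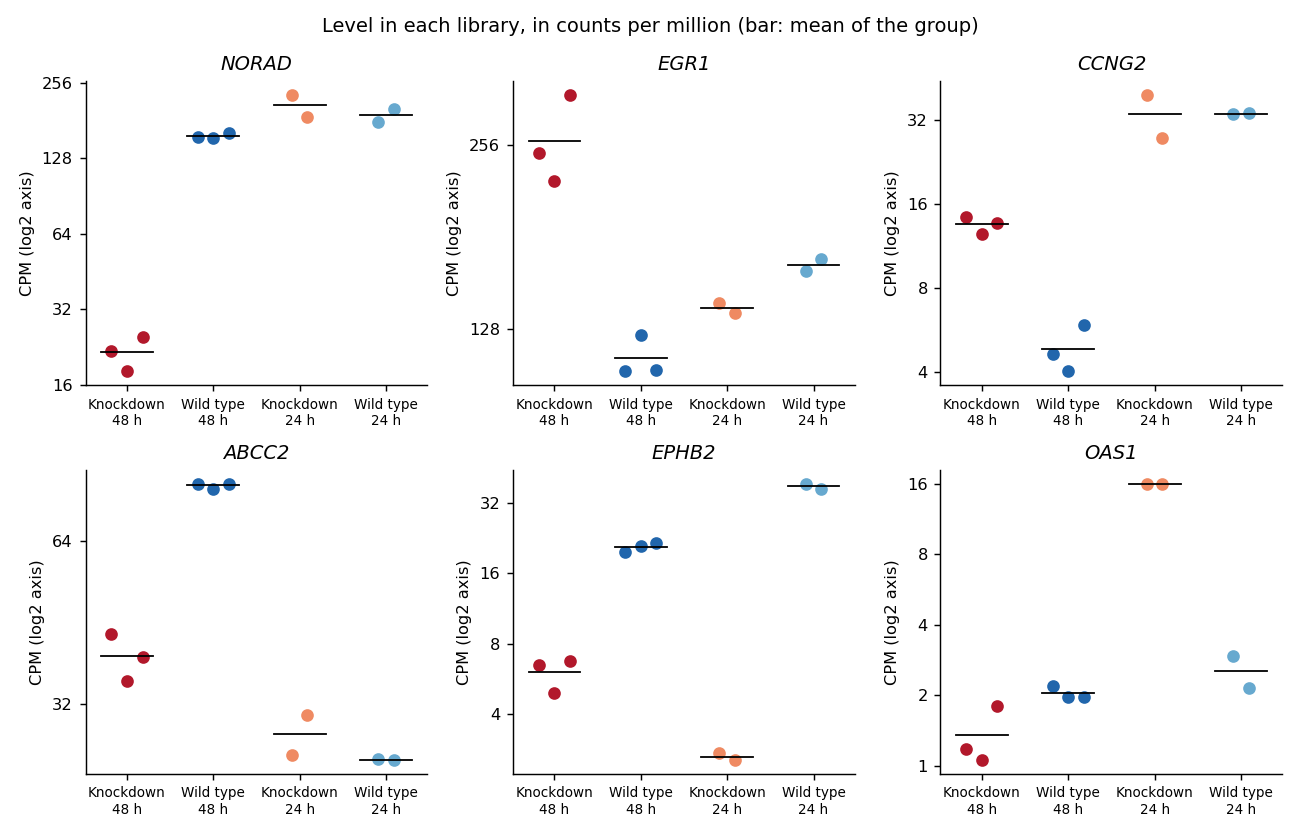
Points are CPM of single libraries on a log2 axis, by group (horizontal axis), and bars are group means. NORAD is low only in the 3 knockdown libraries of 48 h among these 10; EGR1 is highest there, ABCC2 rose less with time in knockdown than in wild type, and EPHB2 and OAS1 differ most between knockdown and wild type at 24 h.

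Among genes of at least 5 CPM on average, the largest falls that arose at 48 h, NORAD apart, were PLAU (net log2 fold change -1.26), the urokinase plasminogen activator; ABCC2 (-1.20), an export pump for conjugated compounds; ALDH1A3 (-0.98), an enzyme that makes retinoic acid; ADAMTS14 (-0.94), a procollagen-cleaving protease; and SCD (-0.82), the desaturase of saturated fatty acids. CPLX1 (-0.81), a regulator of vesicle fusion, MARVELD1 (-0.80), IGSF9 (-0.79), PARVA (-0.78), an actin-binding partner of integrin-linked kinase, and the noncoding AL135905.2 (-0.77) followed. ABCC2 had 43.2, 35.3 and 39.2 CPM in knockdown and 81.7, 80.0 and 81.7 CPM in wild type at 48 h, and 25.8 and 30.5 CPM in knockdown and 25.3 and 25.3 CPM in wild type at 24 h. Knockdown was below wild type in every library of 48 h, and at 24 h no knockdown library was below a wild-type library. ABCC2 rose with time in both, by 0.48 in knockdown and 1.68 in wild type on the log2 scale (net SE 0.133, edgeR adjusted p = 2.29e-05).

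ADAMTS14 had 12.2, 11.2 and 9.61 CPM in knockdown and 22.1, 21.1 and 18.4 CPM in wild type at 48 h, and 23.1 and 21.2 CPM in knockdown and 22.2 and 20.8 CPM in wild type at 24 h. Here the level dropped with time in knockdown and stayed near its 24 h level in wild type (log2 changes of -1.01 and -0.07). At 96 h it stood on the other side, with 45.1, 48.4 and 49.5 CPM in knockdown and 28.9, 27.5 and 28.2 CPM in wild type. SCD dropped steeply with time in both, by 4.0 in knockdown and 3.17 in wild type on the log2 scale.

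The calls of ABCC2, ADAMTS14 and MARVELD1 held without each library in turn. Without wild-type replicate 1 of 24 h the edgeR adjusted p was 0.0634 for PLAU, 0.174 for ALDH1A3, 0.174 for SCD, 0.0869 for CPLX1, 0.125 for PARVA and 0.0714 for AL135905.2. Without wild-type replicate 2 of 24 h it was 0.135 for SCD, 0.0646 for CPLX1, 0.0906 for IGSF9 and 0.0867 for PARVA. Without knockdown replicate 1 of 24 h it was 0.13 for ALDH1A3, 0.194 for SCD and 0.0952 for AL135905.2, and without knockdown replicate 2 of 24 h it was 0.0548 for ALDH1A3, 0.0851 for CPLX1 and 0.0965 for PARVA. Of the 48 h libraries, knockdown replicate 1 ended the calls of ALDH1A3 (0.0579) and SCD (0.0844), wild-type replicate 1 those of ALDH1A3 (0.0627), SCD (0.0799) and PARVA (0.0667), wild-type replicate 2 those of ALDH1A3 (0.0592) and SCD (0.0759), and wild-type replicate 3 that of SCD (0.0688), when left out. In a fit of the 10 libraries alone the adjusted p was 0.0835 for PLAU, 0.122 for ALDH1A3, 0.136 for SCD and 0.073 for PARVA.

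Some genes already differed at 24 h and differed more, in the same direction, at 48 h. The 12 rises of this kind included TRIML2 (net 1.43), SPTSSB (1.34), a small subunit of serine palmitoyltransferase, SMPD1 (0.96), the lysosomal acid sphingomyelinase, and SH3TC1 (0.95). TRIML2 had 99.3, 105 and 77.5 CPM in knockdown and 27.0, 25.6 and 27.4 CPM in wild type at 48 h, and 51.9 and 59.2 CPM in knockdown and 43.3 and 41.8 CPM in wild type at 24 h. The groups did not overlap at either time. These 4 calls held without each library in turn, and the 4 genes were higher in knockdown at 96 h too, by 1.03 for SPTSSB, 0.58 for SMPD1, 0.52 for SH3TC1 and 0.49 for TRIML2 on the log2 scale.

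The 15 falls of this kind included CYP24A1 (net -1.5), the enzyme that breaks down active vitamin D, KRT13 (-1.23), a keratin of stratified epithelium, WNT16 (-1.0), a secreted Wnt ligand, LPAR3 (-0.75), a lysophosphatidic acid receptor, and ASB13 (-0.71). CYP24A1 had 10.5, 9.45 and 12.3 CPM in knockdown and 57.8, 59.4 and 53.5 CPM in wild type at 48 h, and 6.02 and 5.14 CPM in knockdown and 9.90 and 10.9 CPM in wild type at 24 h. It rose with time in both, by 0.95 in knockdown and 2.45 in wild type, and its log2 fold change was -2.40 at 48 h, -0.90 at 24 h and -0.69 at 96 h. It held without each library in turn. Without knockdown replicate 1 of 24 h the edgeR adjusted p was 0.0582 for KRT13 and 0.0762 for WNT16, without wild-type replicate 1 of 24 h it was 0.115 for WNT16 and 0.0612 for LPAR3, and without wild-type replicate 2 of 24 h it was 0.0666 for ASB13. In a fit of the 10 libraries alone it was 0.0659 for WNT16 and 0.0554 for ASB13.

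The largest net rises among the named genes came from those whose knockdown difference at 24 h ran against the net change. EPHB2, a receptor tyrosine kinase for ephrin B ligands, had 6.48, 4.93 and 6.76 CPM in knockdown and 19.7, 20.9 and 21.5 CPM in wild type at 48 h, and 2.73 and 2.56 CPM in knockdown and 38.6 and 36.5 CPM in wild type at 24 h. KCNK1, a potassium channel subunit, had 4.65, 4.77 and 5.80 CPM in knockdown and 24.0, 22.0 and 21.5 CPM in wild type at 48 h, and 2.52 and 1.96 CPM in knockdown and 32.3 and 34.1 CPM in wild type at 24 h. Both were lower in knockdown at both times, and most so at 24 h, when NORAD had not changed. The log2 fold changes were -1.78 at 48 h and -3.83 at 24 h for EPHB2 (net 2.05, SE 0.18), and -2.15 at 48 h and -3.90 at 24 h for KCNK1 (net 1.75, SE 0.177).

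CEP83, a component of the distal appendages of centrioles, had the same pattern, with 2.72, 2.90 and 1.94 CPM in knockdown and 11.7, 9.82 and 11.3 CPM in wild type at 48 h, and 0.42 and 0.55 CPM in knockdown and 9.07 and 10.3 CPM in wild type at 24 h. Its log2 fold change was -2.10 at 48 h and -4.30 at 24 h (net 2.20, SE 0.267). MPO, the peroxidase of neutrophil granules, MXD1, a partner of MAX that opposes MYC, and CDKN1C, a cyclin-dependent kinase inhibitor, instead changed sign between the times. MPO had 2.55, 3.09 and 3.44 CPM in knockdown and 0.94, 0.60 and 0.88 CPM in wild type at 48 h, and 8.10 and 8.52 CPM in knockdown and 12.6 and 11.5 CPM in wild type at 24 h. For MPO the log2 fold change was 1.91 at 48 h and -0.54 at 24 h, for MXD1 0.92 and -0.68, and for CDKN1C 0.99 and -0.51, and their net values were 2.44, 1.60 and 1.5. All 6 of these calls held without each library in turn.

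The interferon-stimulated genes, which cells switch on when they sense foreign nucleic acid or receive interferon, made up much of the falls of this kind. Of 46 members tested, 21 fell (45.7%, against 0.701% of all genes) and 2 rose in the net comparison, and the median net log2 fold change was -0.80, against 0.06 for all genes. The list's median knockdown effect was 0.25 at 48 h and 0.98 at 24 h, when 36 members passed as higher in knockdown (5.14% of all genes did) and none as lower (12.4%). At 48 h 16 passed as higher (14.8% of all genes did) and 3 as lower (18.5%). The number of falling members lay between 15 and 26 over the other settings tried, with 26 falling and 3 rising without knockdown replicate 3 of 48 h. The 2 rising members, IRF7 (0.85), a transcription factor for interferon genes, and ISG20 (0.81), an exonuclease, are named because they are few, after their values were seen, and neither was called without knockdown replicate 2 or wild-type replicate 1 of 24 h.

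OAS1, which makes the 2'-5' linked oligoadenylates that activate RNase L, had 1.18, 1.06 and 1.80 CPM in knockdown and 2.19, 1.97 and 1.96 CPM in wild type at 48 h, and 15.9 and 16 CPM in knockdown and 2.94 and 2.16 CPM in wild type at 24 h. The knockdown libraries were above wild type at 24 h and below it at 48 h, and the net log2 fold change was -3.26 (SE 0.274, edgeR adjusted p = 1.05e-06). IFIT1, which binds foreign RNA ends, had 2.62, 2.97 and 2.87 CPM in knockdown and 1.49, 0.76 and 1.30 CPM in wild type at 48 h, and 28.3 and 27.8 CPM in knockdown and 4.22 and 3.37 CPM in wild type at 24 h. It stayed higher in knockdown at both times (net -1.62), as did IFI6 with log2 fold changes of 1.24 at 48 h and 2.60 at 24 h (net -1.36). IFIH1, a sensor of double-stranded RNA (net -1.45), and PARP9 (-1.38) and DTX3L (-1.23), which form a complex, had log2 fold changes of -0.11, 0.13 and -0.07 at 48 h and of 1.34, 1.51 and 1.16 at 24 h. These 6 calls held without each library in turn.

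PARP10 (net -1.39) passed as well, but its edgeR adjusted p was 0.0586 without knockdown replicate 2 of 24 h, 0.0932 and 0.0641 without wild-type replicates 1 and 2 of 24 h, and 0.0687 in a fit of the 10 libraries alone. TMED7-TICAM2 (net -1.59) is a readthrough gene of 2 neighbours and shares its reads with them, so its estimated counts are uncertain.

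Some genes of sterol synthesis and of the stress responses rose in the net comparison. Of 33 sterol and fatty acid synthesis genes tested, 9 rose (27.3%, against 1.07% of all genes) and 1 fell, with a median net log2 fold change of 0.27 and a median knockdown effect of -0.17 at 48 h and -0.52 at 24 h. At 48 h 3 members passed as higher in knockdown (9.09%, against 14.8% of all genes) and 12 as lower (36.4%, against 18.5%). At 24 h 2 passed as higher and 20 as lower (60.6%, against 12.4% of all genes). MVD (net 0.65), MVK (0.63) and ACAT2 (0.74) are enzymes of the mevalonate pathway to cholesterol, and LPIN1 (0.84) makes diacylglycerol. MVD had 87.1, 92.2 and 90.8 CPM in knockdown and 93.7, 94.9 and 88.4 CPM in wild type at 48 h, and 353 and 347 CPM in knockdown and 599 and 525 CPM in wild type at 24 h. The groups overlapped at 48 h and were apart at 24 h. LPIN1 did otherwise, with 18.9, 17.4 and 14.0 CPM in knockdown and 10.2, 11.3 and 10.8 CPM in wild type at 48 h, and 60.4 and 58.1 CPM in knockdown and 65.1 and 70.6 CPM in wild type at 24 h. SCD was the member that fell.

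The sterol count rested on single libraries. It was 1 without knockdown replicate 2 of 24 h and 1 without wild-type replicate 1 of 24 h, 3 without wild-type replicate 2 of 24 h, 4, 3 and 4 without wild-type replicates 1, 2 and 3 of 48 h, 10 without knockdown replicate 3 of 48 h, and 3 in a fit of the 10 libraries alone or with no filter on low counts. LPIN1 was called in each of the leave-one-out fits. Without knockdown replicate 2 of 24 h the edgeR adjusted p was 0.0592 for MVD, 0.119 for ACAT2 and 0.109 for MVK, and without wild-type replicate 1 of 24 h it was 0.0638, 0.0638 and 0.217 for the same genes. ACAT2 was also lost without wild-type replicate 2 of 24 h (0.0621), and MVK without knockdown replicate 1 of 24 h (0.128), without wild-type replicate 2 of 48 h (0.0966), with no filter (0.0523) and in the fit of 10 libraries (0.0718).

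Of 35 tested genes that answer amino acid shortage or unfolded protein, 9 rose (25.7%, against 1.07% of all genes) and none fell. The median net log2 fold change was 0.19, and the median knockdown effect was -0.12 at 48 h and -0.33 at 24 h. At 48 h 4 members passed as higher in knockdown (11.4%, against 14.8% of all genes) and 6 as lower (17.1%, against 18.5%). At 24 h none passed as higher and 19 as lower (54.3%, against 12.4% of all genes). DDIT3 (net 1.45), a transcription factor of these responses, had 19.4, 24.8 and 16.5 CPM in knockdown and 13.0, 13.2 and 11.9 CPM in wild type at 48 h, and 23.8 and 19.8 CPM in knockdown and 45.2 and 29.3 CPM in wild type at 24 h. CHAC1 (1.33), which breaks down glutathione, had 3.49, 4.15 and 3.55 CPM in knockdown and 3.0, 3.16 and 2.81 CPM in wild type at 48 h, and 3.92 and 3.56 CPM in knockdown and 8.66 and 6.44 CPM in wild type at 24 h. With time, DDIT3 changed by -0.10 in knockdown and by -1.55 in wild type on the log2 scale, and CHAC1 by -0.00 in knockdown and by -1.33 in wild type. SESN2 (0.88), a stress-induced inhibitor of mTORC1, and ASNS (0.63), asparagine synthetase, also rose.

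The stress count was 2 without knockdown replicate 2 or wild-type replicate 1 of 24 h, 5 without wild-type replicate 1 or 2 of 48 h, 10 without knockdown replicate 3 of 48 h, 5 with no filter on low counts and 2 in a fit of the 10 libraries alone, where the edgeR adjusted p of DDIT3 was 0.0654 and that of SESN2 0.062. DDIT3 and CHAC1 were called without each library in turn. Without knockdown replicate 2 of 24 h the adjusted p was 0.0851 for SESN2 and 0.0851 for ASNS, and without wild-type replicate 1 of 24 h it was 0.115 and 0.0638.

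Of 43 immediate early genes and genes of ERK signalling, 6 rose (14.0%, against 1.07% of all genes) and 3 fell (6.98%, against 0.701%). The median net log2 fold change was 0.23, and the median knockdown effect was -0.01 at 48 h and -0.23 at 24 h. At 48 h 8 members passed as higher in knockdown (18.6%, against 14.8% of all genes) and 10 as lower (23.3%, against 18.5%). At 24 h 1 passed as higher and 12 as lower (27.9%, against 12.4% of all genes). EGR1 and FOSB are given above, and MAFF (net 0.93), a small Maf protein, had 29.3, 29 and 30.4 CPM in knockdown and 18.4, 20.3 and 16.1 CPM in wild type at 48 h, and 55.8 and 45.5 CPM in knockdown and 62.4 and 56.8 CPM in wild type at 24 h. IER3 (0.74) also rose. It had 451, 519 and 522 CPM in knockdown and 478, 513 and 451 CPM in wild type at 48 h, which overlap. At 24 h it had 549 and 461 CPM in knockdown and 875 and 755 CPM in wild type. The 3 that fell were CCND1 (-0.56), cyclin D1, and 2 genes outside the naming rule chosen after their values were seen, EREG (-0.64), a ligand of the EGF receptor, and DUSP4 (-0.60), a phosphatase of ERK. EGR1 and MAFF were called without each library in turn.

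The rising count of that list was 2 without knockdown replicate 2 or wild-type replicate 1 of 24 h and 3 without wild-type replicate 1 or 2 of 48 h. The falling count was 0 without knockdown replicate 1 of 24 h, wild-type replicate 1 of 24 h or wild-type replicate 1 of 48 h, 1 without wild-type replicate 2 of 24 h, knockdown replicate 1 of 48 h or wild-type replicate 2 or 3 of 48 h, and 6 without knockdown replicate 3 of 48 h. For IER3 the edgeR adjusted p was 0.14 when knockdown replicate 2 of 24 h, and 0.109 when wild-type replicate 1 of 24 h, was left out. For CCND1 it was 0.113 and 0.0548 without knockdown replicates 1 and 2 of 24 h, 0.196 and 0.053 without wild-type replicates 1 and 2 of 24 h, and 0.0632 without wild-type replicate 1 of 48 h. A fit of the 10 libraries alone left 2 rising and 0 falling, with 0.0548 for IER3 and 0.0654 for CCND1.

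Of 24 keratins and squamous genes tested, 6 fell (25.0%, against 0.701% of all genes) and none rose, with a median net log2 fold change of -0.34 and a median knockdown effect of -1.02 at 48 h and -0.40 at 24 h. KRT20, a keratin of differentiated gut epithelium, had 1.88, 1.75 and 2.62 CPM in knockdown and 7.34, 5.84 and 7.5 CPM in wild type at 48 h, and 2.58 and 2.70 CPM in knockdown and 2.41 and 3.04 CPM in wild type at 24 h. With time it changed by -0.35 in knockdown and by 1.34 in wild type on the log2 scale, for a net value of -1.69 (SE 0.247, edgeR adjusted p = 0.000739). KRT23 (net -0.69) had 19.7, 20.5 and 21.3 CPM in knockdown and 33.6, 32.2 and 33.1 CPM in wild type at 48 h, and 20.4 and 21.6 CPM in knockdown and 20.4 and 21.4 CPM in wild type at 24 h. Both were called without each library in turn, and at 96 h their log2 fold changes were 0.02 for KRT20 and -0.18 for KRT23. KRT80 (-1.66) was lost without knockdown replicate 1 of 24 h (adjusted p = 0.085) and without wild-type replicate 1 of 24 h (0.125), and KRT13 is given above. The list's falling count was 2 without knockdown replicate 1 of 24 h, 3 without wild-type replicate 1 of 24 h, and 7 without knockdown replicate 3 of 48 h.

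Of 22 beta-catenin target genes, 4 fell (18.2%, against 0.701% of all genes) and 1 rose (4.55%, against 1.07%). The median net log2 fold change was -0.47, and the median knockdown effect was -0.32 at 48 h and -0.07 at 24 h. The member that rose was EPHB2, which is lower in knockdown at both times. Those that fell were WNT16, CCND1, CD44 (-0.65), a receptor for hyaluronan, and DKK1 (-0.68), a secreted Wnt inhibitor. The falling count was 0 without knockdown replicate 1 or wild-type replicate 1 of 24 h, 11 without knockdown replicate 3 of 48 h and 1 in a fit of the 10 libraries alone, and it was 6 or 7 under the 4 other scalings. Without knockdown replicate 1 of 24 h the edgeR adjusted p was 0.0853 for CD44 and 0.0667 for DKK1, and without wild-type replicate 1 of 24 h it was 0.0758 and 0.125. In the fit of 10 libraries it was 0.0526 for CD44.

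**Figure D4:**
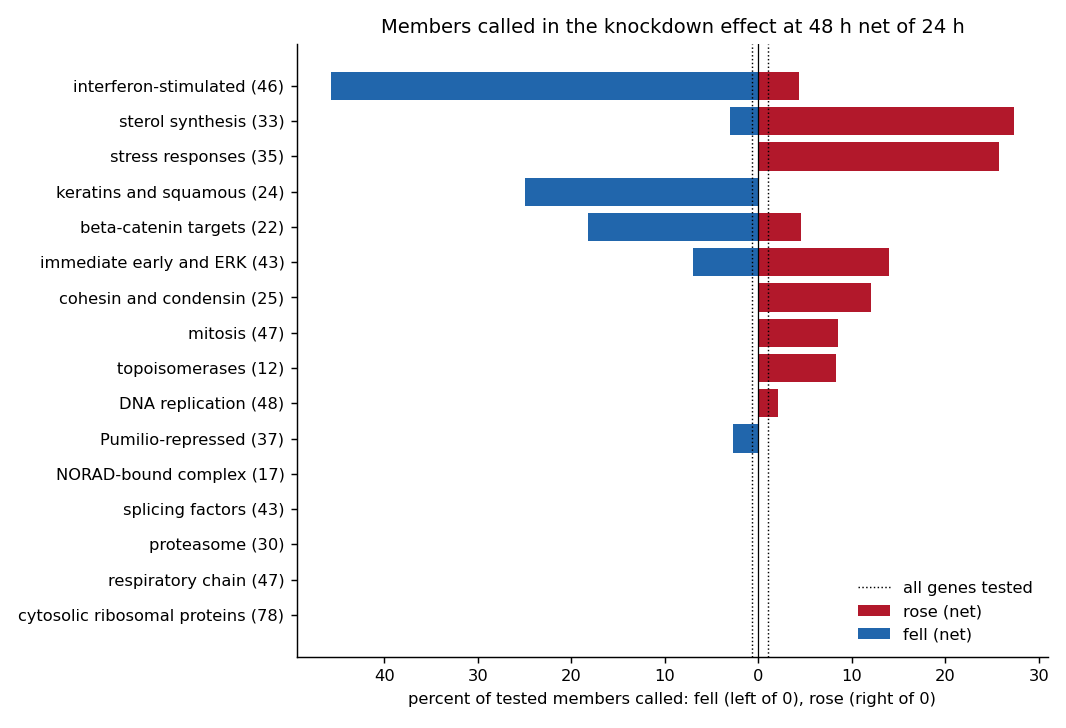
Bars give the percent of tested members (number in brackets) called as risen (right of 0) or fallen (left of 0) in the net comparison; dotted lines mark 1.07% and 0.701%, the shares of all genes tested. Interferon-stimulated genes fell most often (45.7%), and sterol synthesis (27.3%) and stress response genes (25.7%) rose most often among the lists drawn.

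NORAD is known for its part in chromosome handling. In the mitosis list 4 of 47 rose (8.51%, against 1.07% of all genes), CDC25C (0.77), CENPE (0.77), UBE2C (0.50) and TOP2A (0.48), and none fell. All 47 had a positive net value, as did 11504 of the 19836 genes tested, with a median of 0.27, a median knockdown effect of -0.17 at 48 h, -0.46 at 24 h and -0.79 at 96 h. SMC4 (0.83), NCAPG (0.51) and NCAPH2 (0.45), subunits of condensin, were the 3 of 25 cohesin and condensin genes that rose (12.0%). In that order their log2 fold changes were 0.18, -0.09 and 0.03 at 48 h and -0.65, -0.60 and -0.42 at 24 h. These calls rested on single libraries: none of the mitosis genes passed when knockdown replicate 1 or 2 of 24 h, wild-type replicate 1 or 2 of 24 h or wild-type replicate 2 of 48 h was left out, 1 passed without wild-type replicate 1 and 2 without wild-type replicate 3 of 48 h, and 7 without knockdown replicate 3 of 48 h. None of the cohesin and condensin genes passed without those same 5 libraries, and 1 passed without wild-type replicate 1 or 3 of 48 h.

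In the DNA replication list 1 of 48 rose (CLSPN, 0.62) and in the DNA repair list 1 of 39, the same gene, which had an edgeR adjusted p between 0.0669 and 0.128 under the 4 other scalings. TOP2A, which untangles sister chromatids, was the 1 topoisomerase of 12 that passed, with 242, 259 and 226 CPM in knockdown and 223, 218 and 251 CPM in wild type at 48 h, and 94.3 and 93.3 CPM in knockdown and 123 and 127 CPM in wild type at 24 h. The groups overlapped at 48 h. Its adjusted p of 0.0486 became 0.0667 and 0.0782 without knockdown replicates 1 and 2 of 48 h, 0.126 and 0.188 without wild-type replicates 1 and 2 of 48 h, 0.162 and 0.262 without knockdown replicates 1 and 2 of 24 h, and 0.176 and 0.187 without wild-type replicates 1 and 2 of 24 h. CLSPN was lost without the same 8 libraries, at 0.085, 0.0747, 0.121, 0.152, 0.228, 0.114, 0.204 and 0.139 in that order. TOP2A was likewise lost under each of the 4 other scalings, at 0.0527 to 0.108.

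None of the 17 genes of the NORAD-bound complex passed, in a list written from general knowledge, where 1.77% of all genes did. Their median net value was 0.06 (-0.01 with scaling by total count or with no filter). At 24 h 9 passed as lower in knockdown (52.9%, against 12.4% of all genes) and at 48 h 8 (47.1%, against 18.5%). None passed as higher at these times. The median knockdown effect was -0.32 at 24 h and -0.19 at 48 h. TOP1, a topoisomerase, had a net value of 0.40 (edgeR adjusted p = 0.0669), with -0.52 at 24 h and -0.13 at 48 h. The net count of 0 did not hold throughout: 1 rose with upper-quartile scaling, 2 with DESeq2, 1 without knockdown replicate 1 of 48 h and 1 without knockdown replicate 2 of 24 h, and 1 rose and 1 fell without knockdown replicate 3 of 48 h. Of 23 genes of the list of NORAD, Pumilio and their partners, BTG1 (0.72), an antiproliferative partner of the CCR4-NOT deadenylase, was the 1 that rose, and NORAD was the 1 that fell. BTG1 had 26.1, 26.8 and 33.3 CPM in knockdown and 22.7, 21.7 and 22.6 CPM in wild type at 48 h, and 69.6 and 51.1 CPM in knockdown and 77.3 and 77.9 CPM in wild type at 24 h. Its edgeR adjusted p of 0.0255 became 0.0589, 0.107 and 0.054 without wild-type replicates 1, 2 and 3 of 48 h, 0.28 without knockdown replicate 2 of 24 h, 0.126 and 0.0948 without wild-type replicates 1 and 2 of 24 h, and 0.122 in a fit of the 10 libraries alone.

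Pumilio proteins repress messenger RNAs that carry their motif in the 3' UTR, and loss of NORAD is known to free them. Of 37 genes described as repressed by Pumilio, none rose and 1 fell, HMGA2 (-0.57), a chromatin architectural protein, and the list's median net value was 0.16, against 0.06 for all genes. Without knockdown replicate 3 of 48 h 2 rose and 2 fell, and without knockdown replicate 1 of 48 h 1 rose and 1 fell. Without knockdown replicate 2 of 24 h the median was 0.02. By time, members were often lower in knockdown, also at 24 h, when NORAD had not fallen. At 48 h 15 passed as lower (40.5%, against 18.5% of all genes), at 24 h 16 (43.2%, against 12.4%) and at 96 h 18 (48.6%, against 5.15%). Only 1 member passed as higher at each time. Lower levels were not particular to this list, and some members, such as MCM4, PCNA and SMC3, are also in the replication or cohesin lists. In the DNA replication list 81.2% passed as lower at 24 h, 70.8% at 48 h and 87.5% at 96 h. In the mitosis list it was 76.6%, 34.0% and 97.9%. The part of the shared members was not tested. HMGA2 had 240.3, 224 and 290.3 CPM in knockdown and 451, 455 and 461 CPM in wild type at 48 h, and 292 and 286 CPM in knockdown and 329 and 374 CPM in wild type at 24 h. Its edgeR adjusted p of 0.0278 became 0.0641, 0.0565 and 0.0634 without wild-type replicates 1, 2 and 3 of 48 h, 0.117 and 0.0772 without knockdown replicates 1 and 2 of 24 h, 0.242 without wild-type replicate 1 of 24 h and 0.0967 in a fit of the 10 libraries alone.

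The motif UGUANAUA was searched on the transcript strand in the longest annotated 3' UTR of each gene. Of 1465 tested genes with at least 2 matches, 13 rose (0.887%) and 15 fell (1.02%). Of 2656 genes with 1 match, 27 rose (1.02%) and 21 fell (0.791%), and of 11095 with none, 159 rose (1.43%) and 98 fell (0.883%). The median net log2 fold changes were 0.02, 0.03 and 0.04 in the same order, and all 3 were below 0 with relative log expression scaling (-0.03, -0.01 and -0.00) and with scaling by total count (-0.05, -0.04 and -0.03). Matches are a description of the sequence and not of binding.

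In several other groups no gene passed, where 1.77% of all genes tested did. None of 78 cytosolic ribosomal protein genes passed, and their median net value was 0.19. At 48 h 50 of them were lower in knockdown (64.1%, against 18.5% of all genes) and at 24 h 75 (96.2%, against 12.4%). None passed in the net comparison either among 47 respiratory chain genes (median 0.16), 43 splicing factors (-0.02), 30 proteasome subunits (0.12), 20 heat shock genes (0.10) and 19 NF-kappaB targets (0.07). The same held for 13 mitochondrially encoded RNAs (0.05, but -0.18 with abundance-dependent scaling and -0.03 with scaling by total count) and 5 metallothioneins (-0.09). The median of the NF-kappaB targets was -0.02 with abundance-dependent scaling. Several of these counts of 0 depended on the setting. Without knockdown replicate 3 of 48 h 6 splicing factors fell, 3 respiratory chain genes, 3 proteasome subunits and 1 ribosomal protein gene rose, and 1 heat shock gene rose and 1 fell. Without knockdown replicate 1 of 48 h 2 ribosomal protein genes and 1 proteasome subunit rose. With DESeq2 2 splicing factors fell and 1 gene each of the ribosomal protein, respiratory chain and proteasome lists rose. A single splicing factor fell with scaling by total count, upper quartile or abundance, 2 proteasome subunits rose with abundance-dependent scaling, and 1 NF-kappaB target rose with the replicate block. A single gene rose in each of the lists of ribosome biogenesis and MYC (FBL, 0.44), aminoacyl-tRNA synthetases (YARS, 0.48) and hypoxia and glycolysis (ALDOC, 0.80), and 2 of 30 p53 targets rose (SESN2 and PLK3, 0.48). FBL and the other ribosome biogenesis genes had a median knockdown effect of -0.70 at 48 h and -0.61 at 24 h. Of 33 adhesion genes ITGAX, an integrin of leukocytes, rose (0.91) and CD44 fell. The hypoxia and glycolysis list had 5 rising genes and a median net value of 0.44 without knockdown replicate 1 of 24 h, but none and -0.15 without knockdown replicate 2 of 24 h, against 0.13 with all libraries. Without knockdown replicate 3 of 48 h 2 ribosome biogenesis genes rose and 5 fell, 2 synthetase genes rose, 3 p53 targets rose and 2 fell, and 2 adhesion genes rose and 7 fell. CYP24A1 was the 1 of 9 vitamin D genes, and KRT20 the 1 of 15 genes of intestinal differentiation, that passed.

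FBL, YARS, ALDOC, PLK3 and ITGAX passed narrowly. Without wild-type replicate 1 of 24 h the edgeR adjusted p was 0.266 for FBL, 0.186 for YARS, 0.216 for ALDOC, 0.411 for PLK3 and 0.131 for ITGAX. In the same order of genes it was 0.262, 0.172, 0.226, 0.398 and 0.0548 without knockdown replicate 2 of 24 h. Without knockdown replicate 1 of 24 h it was 0.13 for FBL, 0.118 for YARS, 0.0829 for PLK3 and 0.072 for ITGAX, and without wild-type replicate 2 of 24 h 0.071 for FBL and 0.0627 for YARS. Of the 48 h libraries, leaving out wild-type replicate 1 gave 0.0638 for FBL and 0.0893 for PLK3, wild-type replicate 2 gave 0.137 for FBL, 0.0997 for YARS, 0.116 for ALDOC and 0.168 for PLK3, wild-type replicate 3 gave 0.0758 for FBL, 0.055 for YARS, 0.0725 for ALDOC and 0.0929 for PLK3, and knockdown replicate 2 gave 0.0508 for FBL and 0.0754 for ALDOC.

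In the net comparison 1 of 8 epithelial markers fell (12.5%, against 0.701% of all genes) and none rose. Among markers of other cell types 1 of 16 rose (6.25%, against 1.07% of all genes) and none fell. The 8 epithelial markers summed to between 4220 and 5089 CPM in knockdown and 6752 and 7067 CPM in wild type at 48 h, and to between 6372 and 7008 CPM in knockdown and 7645 and 8099 CPM in wild type at 24 h. KRT8, KRT18, EPCAM and CDH1 were detected in every library, KRT19 fell (net -0.52, named after its values were seen), and VIL1 was below 1 CPM in every library. Of 23 markers of other cell types 16 were tested, and they summed to between 86.1 and 109.7 CPM in knockdown and 53.7 and 54.5 CPM in wild type at 48 h, and to between 111.7 and 114.1 CPM in knockdown and 82.9 and 97.9 CPM in wild type at 24 h. COL1A1 held most of that sum and was the 1 of them that rose (net 0.75, named after its values were seen). Over the 10 libraries PAX2 had 9.35 to 16.7 CPM, DES 1.3 to 6.2 CPM, MYH11 1.76 to 3.61 CPM and SYP 1.66 to 3.46 CPM. ITGAM, ACTA1, ELAVL3, VWF and CDH5 were above 1 CPM in some of these libraries only. COL1A2, PTPRC, PECAM1 and CD3E were below 1 CPM or not tested. KRT19 did not pass when any wild-type library of 24 h or 48 h, or knockdown replicate 1 of 24 h, was left out, and COL1A1 did not when knockdown replicate 1 or 2 or wild-type replicate 1 of 24 h was left out. Fewer cells of a kind and less RNA per cell cannot be told apart in these libraries, and the part of these markers in the results was not tested.

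The 96 h libraries take no part in the net value and show the same genes in other libraries. They did enter the estimate of the spread on which the net calls rest. The 96 h shares are therefore not fully independent of those calls. At 96 h 10.5% of all genes passed, 5.35% higher and 5.15% lower in knockdown. Of the 213 net-rising genes, 48 were higher in knockdown at 96 h (22.5%) and 39 lower (18.3%), and of the 138 falling genes other than NORAD, 11 were lower (7.97%) and 39 higher (28.3%). Among the genes called without knockdown replicate 3 of 48 h, the share of net-rising genes that were higher at 96 h was 13.2%. By kind, rising genes that had arisen at 48 h were higher at 96 h in 33 of 108 cases (30.6%) and lower in 4 (3.70%), whereas falling genes that had arisen at 48 h were lower in 4 of 64 cases (6.25%), close to the share of all genes, and higher in 11 (17.2%).

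Genes that moved against their 24 h difference, where they passed at 96 h, mostly stood on the side of that difference: 35 of 93 net-rising genes were lower in knockdown (37.6%) and 5 higher (5.38%), and 28 of 59 net-falling genes were higher (47.5%) and none lower. Of the genes that differed at both times, 10 of 12 rising genes were higher and 7 of 15 falling genes lower in knockdown at 96 h. The other 2 rising and 8 falling genes did not pass at 96 h. Of the genes that arose at 48 h, EGR1 (log2 fold change 0.41 at 96 h), ZSWIM4 (0.43) and FOSB (0.63) passed as higher and ABCC2 (-0.61) as lower in knockdown at 96 h. ADAMTS14 (0.76) passed in the opposite direction, and LAG3 (-0.41) and CCNG2 (0.12) did not pass. In the plot of the 96 h calls, the kinds that were present at 24 h had the highest bars.

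**Figure D5:**
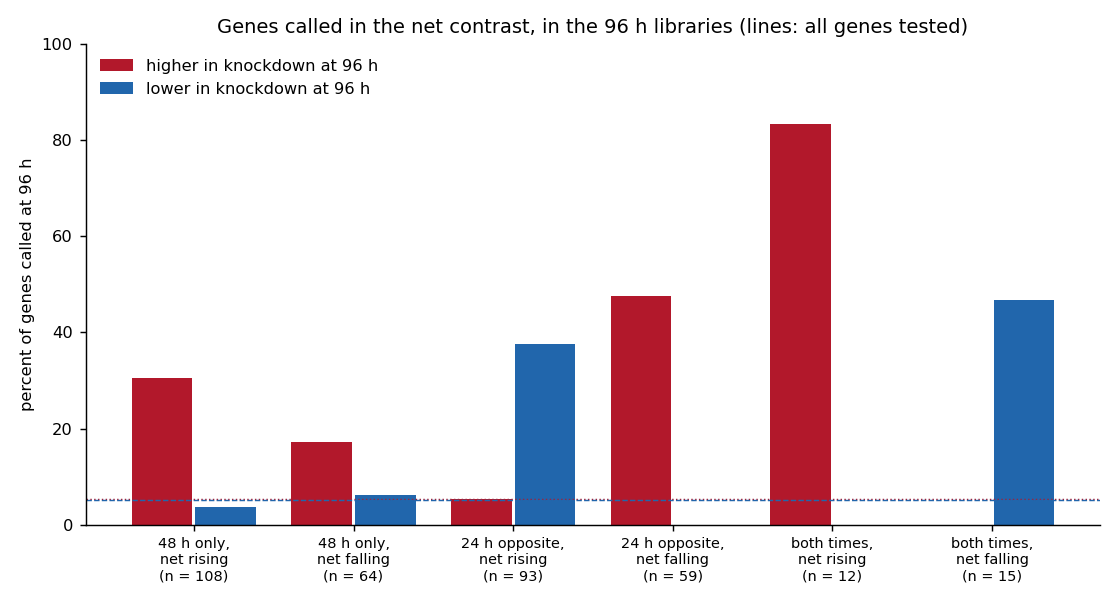
Bars give the percent of net-called genes of each kind (number in brackets) that passed as higher or lower in knockdown at 96 h; the lines mark 5.35% and 5.15%, the shares of all genes tested. Net-rising genes that arose at 48 h were higher at 96 h in 30.6% of cases, and net-rising genes with an opposite difference at 24 h were lower in 37.6%.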

How the data were processed

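Poly(A) RNA of HCT116 cells was sequenced with a strand-specific protocol, per the labels, and the 16 libraries were grouped by their titles. The authors deposited 1 table of estimated counts (expected counts) per transcript. Its 18 largest values, those with 7 or more digits, all end in 0, which shows rounding before deposit. kallisto, DESeq2 and hg19 appear in the submitters' processing notes, with no versions or settings. Since kallisto shares ambiguous reads out by a model, counts of overlapping or near-identical genes are uncertain. By identifier, 156584 of 166096 transcripts matched GENCODE 29 (GRCh38) and were summed to 31496 genes; the 9512 without a match (2.75% to 3.40% of a library) were left out. The 10 libraries held 28391784 to 44036466 counts, so the spread between libraries limits the precision more than counting does. Pairs of libraries in a group differed beyond sampling noise, with chi-square per degree of freedom of 7.84 to 55.9.

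Gene counts were rounded and tested with edgeR 4.0.16 (R 4.3.3): filterByExpr on the 6 groups, scaling by trimmed mean of M-values, group means fitted to all 16 libraries with 10 residual degrees of freedom, glmQLFit (robust) and two-sided glmQLFTest. Adjustment was by Benjamini-Hochberg over 19836 genes, with a threshold of 0.05. SEs came from that fit. A run on simulated counts, in which no library was made to stand apart from its group, is not used as support here. Alternatives were 4 other scalings, no filter, DESeq2 1.42.0, a fit of the 10 libraries, a replicate block, glmTreat against a 1.2-fold change, and leaving out each of the 10 libraries. Named genes were NORAD and, among genes that passed, averaged at least 5 CPM and had the deviations of all 48 h knockdown libraries on the same side of those of 24 h, the 10 largest rises and falls that arose at 48 h, the 6 with an opposite 24 h difference and the 5 present at both times. Added to these were up to 4 members per list with the lowest p and any passing member of the NORAD, complex and topoisomerase lists. A gene that this rule named is not reported here. Of 932 listed symbols 926 were matched, and 18686 genes had a 3' UTR of at least 20 bases. The comparison, the members and the lists were chosen with earlier results of these data known.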

Additional observations from a re-analysis of the deposited data

Results flagged for a closer look

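The net value is itself a test of whether the knockdown effect differs between 48 h and 24 h, so each gene listed here is included because its effect differed between the times. Net log2 fold changes are knockdown minus wild type at 48 h, minus the same at 24 h. NORAD had -3.01.

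Genes whose difference arose at 48 h rose by 1.54 (LAG3), 1.49 (CCNG2), 1.41 (EGR1), 1.29 (UPK1A-AS1), 1.25 (ZSWIM4), 1.21 (PAG1), 1.12 (MDGA1), 1.03 (LONRF2), 0.99 (VWA7) and 0.98 (FOSB). Those that fell had -1.26 (PLAU), -1.20 (ABCC2), -0.98 (ALDH1A3), -0.94 (ADAMTS14), -0.82 (SCD), -0.81 (CPLX1), -0.80 (MARVELD1), -0.79 (IGSF9), -0.78 (PARVA) and -0.77 (AL135905.2).

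Genes with an opposite difference at 24 h had net values of 2.44 (MPO), 2.20 (CEP83), 2.05 (EPHB2), 1.75 (KCNK1), 1.60 (MXD1), 1.5 (CDKN1C), -1.62 (IFIT1), -1.59 (TMED7-TICAM2), -1.45 (IFIH1), -1.39 (PARP10), -1.38 (PARP9) and -1.36 (IFI6). Genes that differed at both times and more at 48 h had 1.43 (TRIML2), 1.34 (SPTSSB), 0.96 (SMPD1), 0.95 (SH3TC1), -1.5 (CYP24A1), -1.23 (KRT13), -1.0 (WNT16), -0.75 (LPAR3) and -0.71 (ASB13).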

How the results depend on the processing

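The count of 352 net calls stayed within 1.5 times when libraries were scaled by relative log expression (322), total count (401), upper quartile (442) or by abundance (471), and with no filter (288). It was 635 with DESeq2 (285 rose, 350 fell), 113 in a fit of the 10 libraries alone (61 rose, 52 fell) and 96 with glmTreat against a 1.2-fold change. Leaving out each library in turn gave 99 to 1543 calls. The replicate block gave 145 calls (86 rose, 59 fell). Deviations from the group mean of same-numbered knockdown and wild-type libraries correlated at -0.027 at 24 h and at -0.096 to -0.263 at 48 h. With 2 or 3 libraries per group these values cannot decide whether same-numbered libraries shared a culture or day. The labels do not say so, and the samples were not treated as paired. The net value of NORAD lay between -3.20 and -2.86 in every setting run. The percent of net-rising genes that were higher at 96 h was 22.5, against 13.2 to 28.6 without single libraries. With glmTreat it was 9.43, but there the 96 h call was also made against a 1.2-fold change and is stricter. No named gene that passed changed direction in any setting run. For named genes that did not pass, a change of direction was counted only where the other setting called the gene. The cause of the lost calls was not tested. With 2 libraries per arm at 24 h, the net value is limited by the spread there.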
